A study of Homo sapiens with 4 samples.

Results

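The miR-148 and miR-152 family comprises hsa-miR-148a, hsa-miR-148b and hsa-miR-152 (human miRNAs, named below without the species prefix), and its members were taken by name from a TaqMan array card: all 3 were present among the 377 human miRNA assays of the card. They were measured by quantitative reverse-transcription PCR in the established cell line RPMI8226, malignant human plasma cells from a multiple myeloma that grow in culture. There were 4 samples with 1 in each group: the exosome fraction of the culture medium after 24 h at 1% oxygen (hypoxia), the exosome fraction after 24 h at 20% oxygen (normoxia), the cells at 1% oxygen and the cells at 20% oxygen. All came from 1 unmodified line, the labels name no allele or drug, and they do not state how many cultures lie behind a sample. The exosome fraction, which holds small vesicles that cells shed, was precipitated with a polymer reagent from 5 ml of medium; this enriches vesicles without separating them from other material in the medium. Only the exosome samples were pre-amplified before PCR, per the labels' protocols. The passenger strands of the family are not among the assays of this card.

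A miRNA guides the Argonaute protein to messenger RNAs that pair with its seed, bases 2 to 8 counted from the 5′ end, and the target is then repressed. Members with the same seed share most predicted targets. The family is known for repressing DNA methyltransferases (DNMT1 and DNMT3B) and the immune ligand HLA-G. miR-148a is abundant in plasma cells, where work in B cells has tied it to plasma cell differentiation through BACH2 and to survival through the death protein BIM (BCL2L11). miR-148b lies in an intron of COPZ1 and miR-152 in an intron of COPZ2, paralogous genes for a subunit of the coatomer coat of transport vesicles.

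The mature sequences are shown because the assays have to tell apart strands that differ at few bases; the seed is in capitals, and U stands for the RNA base. They are those of the RefSeq annotation of GRCh38.p14, and assay names without an arm were read as the 3p arm.
miR-148a-3p: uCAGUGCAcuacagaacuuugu
miR-148b-3p: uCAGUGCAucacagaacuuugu
miR-152-3p: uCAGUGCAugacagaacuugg

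In that build they lie at chr7:25949922-25949943 on the minus strand for miR-148a, at chr12:54337278-54337299 on the plus strand for miR-148b and at chr17:48037174-48037194 on the minus strand for miR-152. The spans of MIR148B and MIR152 fall inside COPZ1 and COPZ2, while MIR148A falls inside the uncharacterised locus LOC105375199, between the coding genes NPVF and NFE2L3. Counted from 1 at the 5′ end, with the first-named strand's base first, miR-148a and miR-148b differ by C9U and U10C and are identical at the other 20 of 22 positions, including the last 12. miR-148a and miR-152 differ by C9U, U10G and U20G over the 21 positions compared, and miR-148b and miR-152 by C10G and U20G. The stem-loop primer of a TaqMan assay anneals at the 3′ end of the miRNA, where miR-148a and miR-148b are the same. Detection of one member by another member's assay was not tested.

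Of 2370 mature miRNAs in the RefSeq table, only these 3 had the seed CAGUGCA, and no other assay of the card carried it among the 326 whose names matched. A further 5 mature miRNAs of the table open with the same heptamer, shifted by 1 base, so that it stands at bases 1 to 7. An example is miR-130b-3p (chr22:21653354-21653375, plus strand), with the heptamer in capitals.
miR-130b-3p: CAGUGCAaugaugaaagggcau

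The threshold cycle (Ct) counts the PCR cycles needed to reach a set fluorescence, so a lower Ct means more template, and each cycle stands for a doubling at full efficiency. A Ct of 35, the highest in the data, was read as not detected. Of the 377 miRNAs, 158 and 156 were not detected in the hypoxic and normoxic exosome fraction, and 222 and 215 in hypoxic and normoxic cells. The labelled cell type was checked against its markers: all 6 blood and lymphoid markers (miR-142-3p, miR-142-5p, miR-150, miR-155, miR-146a and miR-223) were detected in all 4 samples, at Ct 24.95 to 31.97 in cells. The liver marker miR-122 was at the ceiling throughout. None of the 3 red cell and platelet markers on the card was detected in cells; miR-451 alone was seen, in the normoxic exosome fraction at Ct 33.2. Of 5 epithelial markers 4 were detected in each sample (at Ct 28.6 to 34.0 in cells), of 4 nervous system markers all 4 in the exosome fraction and 2 in cells, and of 4 muscle and stroma markers 3 in the hypoxic and 2 in the normoxic exosome fraction, 1 in hypoxic and 0 in normoxic cells; their part in the results was not tested. As a check of the oxygen labels, miR-210, a classic target of the hypoxia-inducible factors, was 11.7-fold higher in hypoxic than in normoxic cells. It was 1.31-fold higher in the hypoxic than in the normoxic exosome fraction, within 2-fold, so the check bears on the cell samples and not on the exosome samples. The U6 wells stood at Ct 18.81 ± 0.12 in hypoxic and 18.82 ± 0.15 in normoxic cells (SD, n = 4 wells of 1 sample).

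One feature of the deposited Ct values bears on every result below. Of 757 Ct values under 35, 422 (55.7%) lay in the last 0.1 cycle before a whole number, where an even spread would put 10%. The share was 59.4% in the hypoxic and 51.6% in the normoxic exosome fraction, and 66.5% in hypoxic and 46.3% in normoxic cells. Of the family's 12 values, 8 lay there: all 3 in the hypoxic exosome fraction, none in the normoxic one, miR-148a and miR-152 in hypoxic cells, and all 3 in normoxic cells. The sources used here do not say how these values arose.

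**Figure D1:**
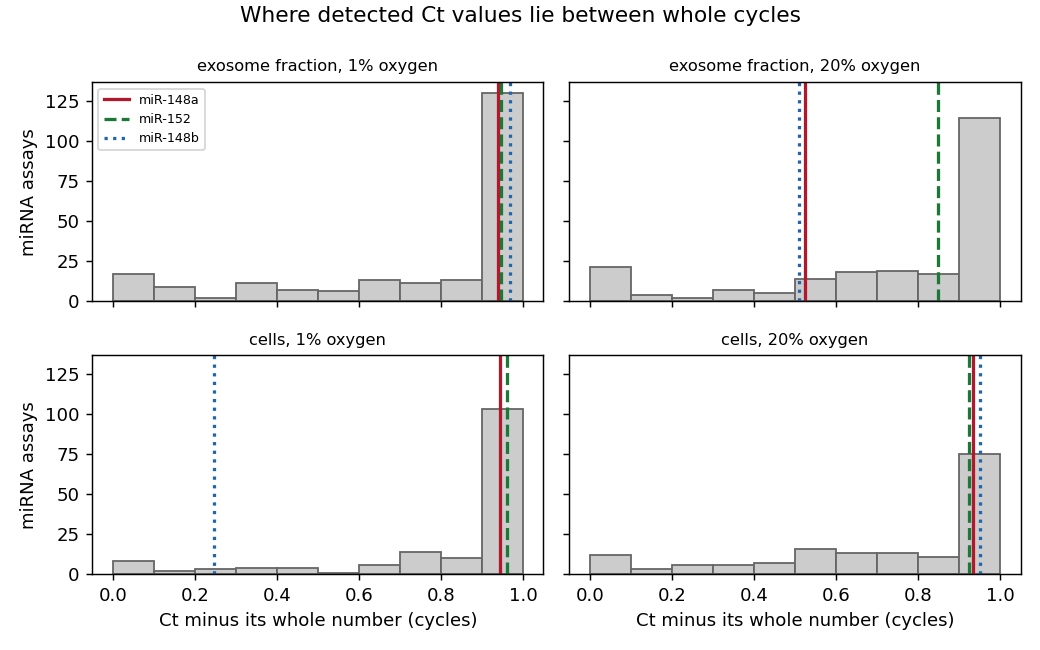
Histograms of the fractional part of Ct (cycles, x axis) over the miRNA assays detected in each sample (y axis, number of assays), with vertical lines for miR-148a, miR-152 and miR-148b. The last bin holds 59.4% and 51.6% of the assays in the hypoxic and normoxic exosome fraction, and all 3 family members lie in it in the hypoxic exosome fraction and none in the normoxic one.

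The order of the family was the same in all 4 samples: miR-148a highest, then miR-152, then miR-148b. hsa-miR-148a, the plasma cell member, had a Ct of 18.94 in the hypoxic and 18.53 in the normoxic exosome fraction, and of 26.94 in hypoxic and 26.93 in normoxic cells. It ranked 10th among the detected miRNAs of both exosome samples, and 24th and 23rd among those of hypoxic and normoxic cells. Of the detected miRNAs, 4.11% and 4.07% ranked above it in the hypoxic and normoxic exosome fraction, and 14.8% and 13.6% in hypoxic and normoxic cells. It stood 8.03 and 8.44 cycles below the median Ct in the exosome samples and 4.04 and 4.19 cycles below it in the cell samples. These shares and medians are over each sample's own detected miRNAs, which were more numerous in the exosome samples, so they do not compare the compartments alike. Over the 138 assays detected in all 4 samples, the median Ct was 23.99 and 23.96 in the hypoxic and normoxic exosome fraction. It was 30.97 and 30.91 in hypoxic and normoxic cells, so the contrast for miR-148a was smaller. Assays differ in efficiency, so a rank is approximate.

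hsa-miR-152 had a Ct of 21.95 in the hypoxic and 21.85 in the normoxic exosome fraction, and of 29.96 in hypoxic and 29.93 in normoxic cells. It ranked 32nd and 34th in the exosome samples and 58th and 57th in the cell samples, in the upper part of the detected miRNAs everywhere. hsa-miR-148b had a Ct of 24.97 in the hypoxic and 24.51 in the normoxic exosome fraction, and of 31.25 in hypoxic and 31.95 in normoxic cells. It ranked 85th and 77th in the exosome samples, above the median level of their own detected miRNAs. In the cell samples it ranked 84th and 97th, 0.26 and 0.83 cycles on the low side of that median. Against the median of the 138 assays detected in all 4 samples, miR-148b was on the low side in each sample.

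Some of these ranks stand in dense stretches of the list, in cells and in the exosome fraction. In hypoxic cells miR-152 (Ct 29.962) lay between miR-29b and miR-25, at Ct 29.9617 and 29.9624, and 11 assays stood within 0.19 cycles of it. That distance is the SD of a difference between single U6 wells of the 2 cell cards, the only repeat measurement in the data; it describes an abundant RNA within a card, and no fainter assay has repeat wells. Neighbours at such distances do not differ beyond it. In the same sample miR-148a (Ct 26.944) lay between miR-454 and miR-92a, with 5 assays within that distance, and in the normoxic exosome fraction it lay between miR-92a and miR-93 with 1. In the hypoxic exosome fraction the counts within that distance were 4 for miR-148a, 8 for miR-148b and 7 for miR-152. For miR-148b in hypoxic cells the count was 2.

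**Figure D2:**
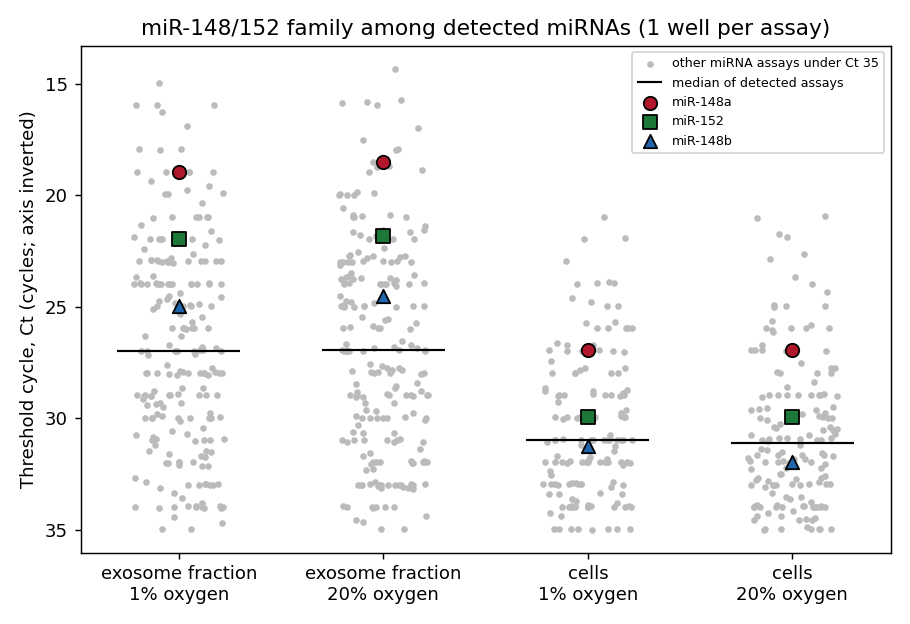
Ct on an inverted axis (cycles, y axis) of each detected miRNA assay (grey points, jittered sideways) in the hypoxic and normoxic exosome fraction and the hypoxic and normoxic cells (x axis), with the median as a line and 1 well per assay. In all 4 samples miR-148a lies above miR-152 and miR-152 above miR-148b, and each member stands at a lower Ct in the exosome samples, which were pre-amplified, than in the cell samples.

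Differences between members within 1 sample need no normalizer. The Ct of miR-152 exceeded that of miR-148a by 3.01 and 3.32 cycles in the hypoxic and normoxic exosome fraction and by 3.02 and 2.99 cycles in hypoxic and normoxic cells. At full efficiency that is 8.04 and 10.0 times more miR-148a than miR-152 in the exosome samples and 8.10 and 7.95 times more in the cell samples. In 3 of the 4 samples the ratio was thus nearly the same, and the normoxic exosome fraction stood apart by 0.33 cycles at most. In those 3 samples both Ct values lay in the last 0.1 cycle before a whole number. That position alone holds each gap within 0.1 cycles of a whole number, so the closeness of these ratios is partly set by it. In the normoxic exosome fraction neither value lay there.

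The gap of miR-148b to the others was not constant. Its Ct exceeded that of miR-148a by 6.03 and 5.98 cycles in the hypoxic and normoxic exosome fraction and by 4.30 and 5.02 cycles in hypoxic and normoxic cells, which is 65.3 and 63.3 times less in the exosome samples and 19.7 and 32.4 times less in the cell samples. The gap was 1.73 cycles wider in the exosome fraction than in cells under hypoxia and 0.97 cycles wider under normoxia. Against miR-152 the gap of miR-148b was 3.02 and 2.66 cycles in the exosome samples and 1.28 and 2.03 cycles in the cell samples. The smallest gap between any pair of members, 1.28 cycles in hypoxic cells, was 6.62 times the U6 well spread. That spread comes from a single assay, so it does not cover differences in efficiency between the assays of the members.

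**Figure D3:**
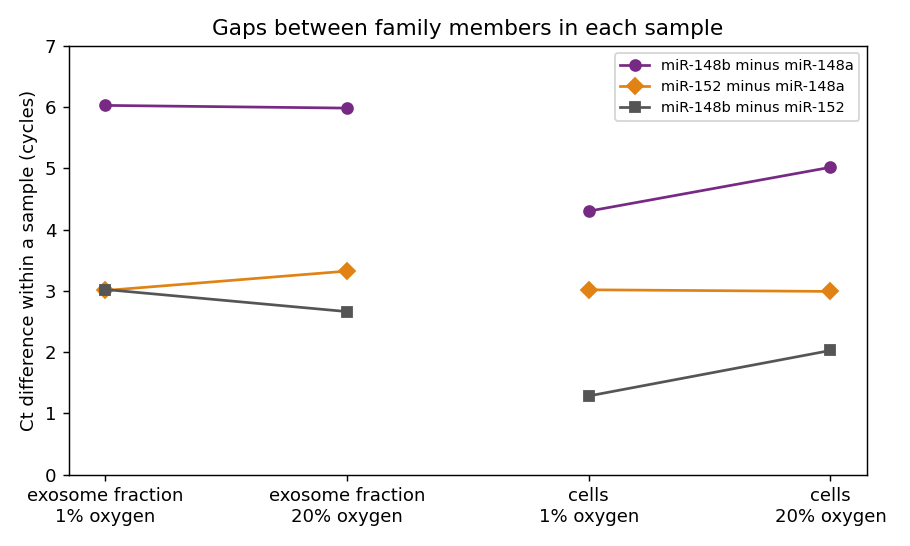
Difference in Ct between pairs of family members within each sample (cycles, y axis; the 4 samples on the x axis, lines joining the samples of 1 compartment). The gap of miR-152 to miR-148a stays between 2.99 and 3.32 cycles, and both gaps of miR-148b are wider in the exosome samples than in the cell samples.

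Taken as shares of the summed family signal (2 to the power of minus Ct), miR-148a made up 87.7% and 89.6% in the hypoxic and normoxic exosome fraction and 85.2% and 86.5% in hypoxic and normoxic cells. miR-152 made up 10.9% and 8.96% in the exosome samples and 10.5% and 10.9% in the cell samples. miR-148b had the remainder, 1.34% and 1.42% in the exosome samples against 4.32% and 2.67% in the cell samples. These shares assume that the assays amplify alike. With an amplification factor of 1.9 per cycle, chosen after the data were seen, miR-148a still held from 82.8% to 87.7% across the samples.

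The first comparison asked how the family in the exosome fraction differs when the cells are hypoxic. With the plant miRNA ath-miR159, spiked in at lysis, as the normalizer (Ct 22.99 in the hypoxic and 22.94 in the normoxic exosome fraction), no member was past 2-fold. Each spike-in value came from 1 well, and both lay in the last 0.1 cycle before the same whole number. That position alone holds their difference under 0.1 cycles. miR-148b was 1.32-fold lower in hypoxia (log2 change -0.41) and miR-148a 1.28-fold lower (-0.36), while miR-152 stood at 0.97 times its normoxic level (-0.05). Of the 203 miRNAs measured in both exosome samples, 3.94% were at least 2-fold higher and 3.45% at least 2-fold lower, and the median log2 change was -0.07. With 1 sample per group there is no replicate check and no p-value, and fewer vesicles in the medium cannot be told apart from less of a miRNA per vesicle.

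For miR-148b, 32 of the 203 assays had a lower log2 change, and for miR-148a 40 did. Set beside assays of a similar level, with a mean Ct within 1 cycle of its own, miR-148a lay at the low end: the 6 others ranged from -0.32 to 0.10. The nearest assays outside that window, below and above it in mean Ct, stood at -0.37 and 0.44, so this place rests on the window. For miR-148b, 7 of 35 such assays differed at least as much in either direction, and for miR-152 20 of 25. All 3 members went from a normoxic Ct elsewhere in the cycle to a hypoxic Ct just before a whole cycle. Among the 81 assays that did so, 75 were lower in hypoxia, with a median log2 change of -0.22. Where both values share a whole cycle, that pattern by itself puts the higher Ct in hypoxia, so this count is not a separate result. With each sample's median Ct over the 203 assays as the normalizer, miR-148b stood at -0.21, miR-148a at -0.16 and miR-152 at 0.15. The direction of miR-152 thus turned. Over each sample's own detected miRNAs the medians hardly differed (26.97 in the hypoxic and 26.96 in the normoxic exosome fraction), and that normalizer was not used.

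The second comparison set hypoxic against normoxic cells. miR-148b was 1.63-fold higher in hypoxic cells (log2 change 0.70), relative to the mean of the U6 wells, and stayed under 2-fold. miR-148a and miR-152 stood at 0.99 and 0.97 times their normoxic levels, log2 changes of -0.02 and -0.04. No member was past 2-fold, against 7.48% of the 147 measured miRNAs that were at least 2-fold higher and 6.12% at least 2-fold lower. miR-210, by comparison, had a log2 change of 3.55 in the same cells.

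The log2 change of miR-148b, from single wells, was 3.61 times the U6 well spread. It was not unusual for its level: among the 44 assays with a mean Ct within 1 cycle, 17 differed at least as much, and the middle 95% of them lay between -1.12 and 1.21. Of all 147 assays, 23 had a higher log2 change. Its normoxic Ct lay just before a whole cycle and its hypoxic Ct did not. Of the 43 assays with that pattern 39 were higher in hypoxia, with a median of 0.25. Where both values share a whole cycle, that pattern by itself puts the lower Ct in hypoxia, so this count is not a separate result. For miR-148a and miR-152 both cellular Ct values lay just before the same whole cycle. Values in that position differ by less than 0.1 cycles by definition, so their small changes are partly set by it. Of the 24 assays with both values just before a whole cycle, the same or another, 19 differed by less than 0.1 cycles. The values were 0.55 for miR-148b, -0.16 for miR-148a and -0.19 for miR-152 with the small nucleolar RNAs RNU44 and RNU48 as normalizers.

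The authors' deposited table of ratios gives 0.755 for miR-148b, 0.7784 for miR-148a and 0.9693 for miR-152 in the exosome fraction (hypoxia over normoxia). In cells the authors' deposited table gives 1.6255 for miR-148b, 0.9896 for miR-148a and 0.9716 for miR-152. Over all measured miRNAs the recomputed log2 changes differed from the authors' deposited values by at most 0.000356.

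**Figure D4:**
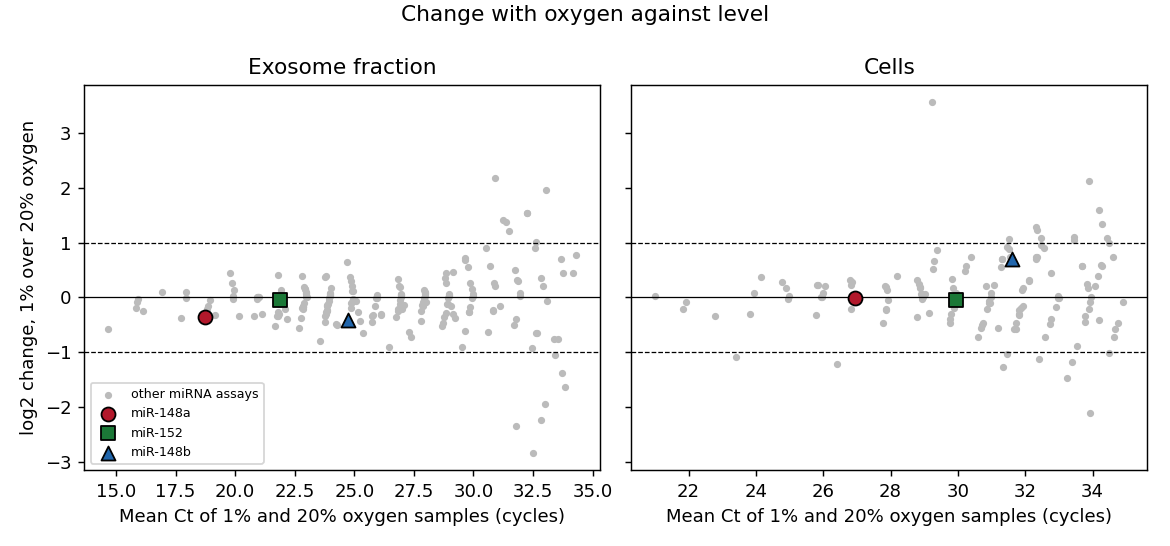
Log2 change of 1% over 20% oxygen (y axis) against the mean Ct of both samples (cycles, x axis) for each miRNA measured in both, in the exosome fraction (left) and in cells (right); dashed lines mark 2-fold and each point is 1 well per sample. The 3 family members lie between the dashed lines in both panels, with miR-148b at 0.70 in cells and at -0.41 in the exosome fraction.

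The third comparison asked whether the response to oxygen differed between the exosome fraction and the cells. The log2 change of miR-148b was -0.41 in the exosome fraction and 0.70 in cells, a difference of -1.11, or 2.15-fold lower in the exosome fraction. Among the 138 miRNAs detected in all 4 samples, 10 had a lower difference, and 10.1% were at least 2-fold lower and 5.80% at least 2-fold higher. The middle 95% of these miRNAs ran from -1.67 to 1.39, around a median of -0.17, and miR-148b lay within it. With sample medians over the miRNAs measured in both samples of a compartment as normalizers, its difference was -0.93, under 2-fold. miR-148a had a difference of -0.35 and miR-152 of 0.00, both within 2-fold.

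The fourth comparison set the exosome fraction against the cells at each oxygen level. Since the exosome samples were pre-amplified and the cells were not, only the position of a miRNA relative to others can be compared. No control spans the compartments: U6 was not detected in the exosome samples, nor the spike-in in the cell samples. What pre-amplification did to each assay cannot be told apart from the compartment. miR-152 and miR-148a lay toward the exosome end of the 138 miRNAs detected in all 4 samples. Their Ct was 8.015 and 8.004 cycles lower in the exosome fraction than in cells under hypoxia, where the median assay differed by 6.15 cycles. Under normoxia it was 8.08 cycles lower for miR-152 and 8.41 cycles lower for miR-148a, where the median assay differed by 6.51. Of the 138 assays, 11 had a larger difference than miR-152 and 12 than miR-148a under hypoxia, and 17 and 11 under normoxia.

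Relative to the median assay, miR-148a was 3.61-fold higher on the exosome side under hypoxia and 3.74-fold higher under normoxia. miR-152 was 3.63-fold and 2.97-fold higher. miR-148b was closer to the middle, at 1.09-fold under hypoxia and 1.91-fold under normoxia, with 65 and 29 assays above it. It was 6.28 and 7.44 cycles lower in Ct in the exosome fraction than in cells. With each sample centred on its median Ct over the 138 assays, the log2 values were 1.02 and 1.46 for miR-148a under hypoxia and normoxia, 1.03 and 1.13 for miR-152, and -0.71 and 0.49 for miR-148b. The negative value of miR-148b under hypoxia turned positive under each other centring tried (0.23 to 2.26). This centring left the median assay at -0.83 under hypoxia and -0.44 under normoxia. No member was at least 4-fold higher or lower at both oxygen levels under it, against 2.90% of the assays that were higher and 16.7% that were lower. Centred on the assays under Ct 32, miR-148a was past 4-fold at both oxygen levels (2.01 and 2.20), as were 7.25% of the assays in that direction. Centred on each sample's own detected assays all 3 members were past it, as were 49.3% of the assays, so the call rests on the centring.

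**Figure D5:**
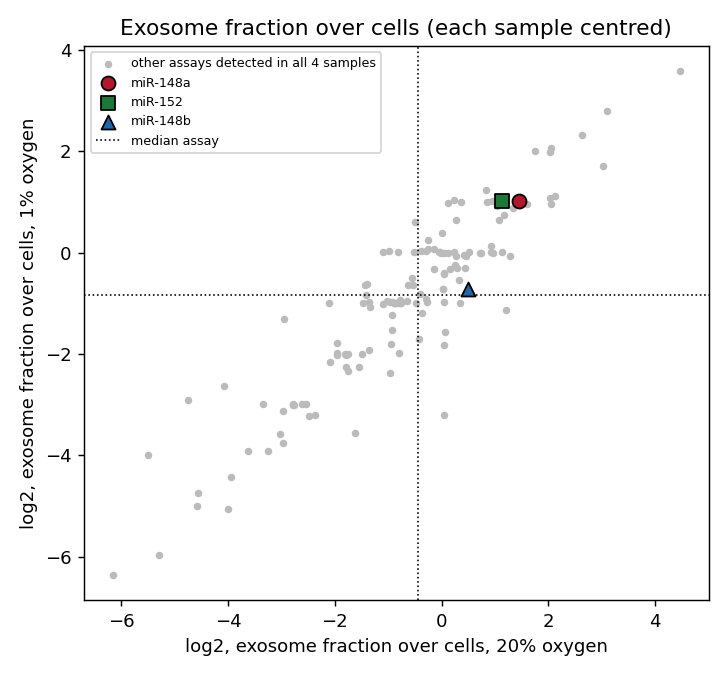
Log2 ratio of the exosome fraction over cells at 1% oxygen (y axis) against that at 20% oxygen (x axis) for the 138 miRNAs detected in all 4 samples, each sample centred on its median; dotted lines mark the median assay. miR-148a and miR-152 lie above the dotted lines on both axes, while miR-148b lies near the line on the axis for 1% oxygen.

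Over all 4 samples, the profile of each member was compared with the other 137 assays by the root mean square difference of centred values. The profile of miR-148a was closest to those of miR-335 (0.09 on the log2 scale), miR-296-5p (0.12) and miR-152 (0.14), while miR-148b was 49th. That of miR-152 was closest to miR-335 (0.09), miR-27a (0.11) and miR-27b (0.12), with miR-148a 7th and miR-148b 50th. miR-148b was closest to miR-455-5p (0.08), miR-150 (0.12) and miR-195 (0.16), with miR-152 73rd and miR-148a 85th. miR-148a and miR-152 thus ran close to each other, and miR-148b did not. The distance of miR-148a to miR-152 restates how constant their gap was. In all samples but the normoxic exosome fraction both values lay just before a whole cycle, so this closeness is partly set by that position. The samples number 4, and the step between compartments dominates these profiles. The 3 assays closest to miR-148b were, like it, lower in the hypoxic exosome fraction and higher in hypoxic cells. Their log2 changes were -0.21 and 0.57 for miR-455-5p, -0.38 and 0.86 for miR-150, and -0.18 and 0.33 for miR-195. These assays were picked by profile from the same values, so the shared directions are not a separate result.

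The family was read beside 2 lists of other miRNAs with related roles. Of 10 miRNAs of B and plasma cells, none was past 2-fold in the exosome fraction (10 measured, median log2 change -0.25) or in cells (9 measured, median 0.07), where the medians of all measured miRNAs were -0.07 and 0.03. Over all measured miRNAs 7.39% were past 2-fold in either direction in the exosome fraction and 13.6% in cells, so a count of 0 in a list of this size is near the background. miR-146a (-0.16 in the exosome fraction and 0.23 in cells), miR-142-3p (-0.40 and -0.02) and miR-21 (0.26 and -0.24) were its most abundant. In the hypoxic exosome fraction miR-146a, a brake on NF-κB signalling, had a Ct close to that of miR-148a (18.96 against 18.94). Both values lay just before the same whole cycle, and the U6 well spread, from cells only, does not cover exosome samples. The Ct of miR-146a was slightly higher than that of miR-148a in the normoxic exosome fraction (18.75), and lower in hypoxic and normoxic cells (25.71 and 25.95).

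Of 8 other miRNAs known to target DNA methyltransferases, 7 were measured in the exosome fraction, none past 2-fold, with a median of 0.02, and 6 in cells, with a median of 0.11. miR-185, which targets DNMT1, was the only one past 2-fold in cells, at -1.18 and a Ct of 33.97 in hypoxic and 32.79 in normoxic cells. With 13.6% of all measured miRNAs past 2-fold, 1 of 6 is near the background, and no member of the list was past it among assays under Ct 32 in both cell samples. The most abundant were miR-29a (0.02 in the exosome fraction and 0.38 in cells), miR-126 (-0.27 and 0.01) and miR-29c (0.39 and 0.13).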

How the data were processed

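The authors' deposited table of Ct values holds 1 well per miRNA for 377 human assays, with U6, RNU44, RNU48 and ath-miR159 as controls; the values are threshold cycles, not normalized, per the file headers. A second deposited table gives the authors' ratio of hypoxia over normoxia, made with Data Assist 3.1, per the series' design text, which names RNU6B as the control for cells and the spike-in as that for the exosome fraction. Checked against the Ct values, the deposited ratios matched normalization to the averaged U6 wells in cells and to the spike-in in the exosome fraction, to within 0.000356 on the log2 scale. The sources used here do not say how the ceiling of 35 was set.

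Log2 changes are the negative difference of normalized Ct, hypoxia minus normoxia, over assays under Ct 35 in both samples. Compartments were compared over assays under Ct 35 in all 4 samples. A change was counted at 2-fold, and a compartment difference at 4-fold at both oxygen levels. With 1 sample per group no test was made. A single Ct carries no count, so no interval applies, and precision is limited by 1 well per sample. No p-value is given.

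Named miRNAs are the members, controls, miR-210, the 3 assays closest in profile, rank neighbours, and from each list the 3 most abundant and any past 2-fold. A further list of related miRNAs is not reported here. Members and lists were chosen with earlier results of these data known. miR-144, which a marker list also holds, and miR-206 are not analysed here. Sequences are from RefSeq (GRCh38.p14), where 326 of 377 assays matched by name. The calculation was tested on simulated data. Python 3.11.15 with pandas 2.3.3 was used.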

Additional observations from a re-analysis of the deposited data

Results flagged for a closer look

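miR-148b lay on opposite sides of no change in the compartments: its log2 change with hypoxia was -0.41 in the exosome fraction and 0.70 in cells. Each value comes from 1 well per sample, and the difference between the compartments was not tested. The other members did not show this; miR-148a stood at -0.36 in the exosome fraction and -0.02 in cells, and miR-152 at -0.05 and -0.04.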

How the results depend on the processing

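The spread used to judge a shift was 0.19 cycles, the SD of a difference between U6 wells. In cells the changes of all 3 members moved by less than that under each other normalizer tried. In the exosome fraction, sample medians over the miRNAs measured in both samples moved them to -0.16 for miR-148a, -0.21 for miR-148b and 0.15 for miR-152. They also brought the response difference of miR-148b to -0.93. The log2 exosome fraction over cells depended on the centring. With each sample's own detected assays it was 3.99 under hypoxia and 4.25 under normoxia for miR-148a, 2.26 and 3.29 for miR-148b, and 4.003 and 3.92 for miR-152. With the mean it was 1.95 and 2.12 for miR-148a, 0.23 and 1.15 for miR-148b, and 1.96 and 1.78 for miR-152. With assays under Ct 32 it was 2.01 and 2.20 for miR-148a, 0.28 and 1.24 for miR-148b, and 2.02 and 1.87 for miR-152. A common shift moves every assay alike, so the positions among the 138 assays are not affected. With Ct under 32 in both samples, list members past 2-fold in cells numbered 0 for the DNA methyltransferase list, since faint assays leave. Of the 59 recomputed values for these comparisons, 36 kept their count, or moved by less than the spread without crossing the fold size counted. The response difference of miR-148b moved by less than the spread but crossed 2-fold, so it is not among the 36. No paired analysis was possible because each group is 1 sample. No faint assay has repeat wells, so the well spread at the level of miR-148b in cells is unknown.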
